A study of Callithrix jacchus with 71 samples.

Results

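The genes described here are 9 transcription factors of the dorsal neural tube and the neural crest. They were taken as a fixed list of names, and all 9 have a row among the 23561 named genes of the deposited table. Of these, 7 pattern the dorsal neural tube and its border (PAX3, PAX7, ZIC1, ZIC2, ZIC5, MSX1 and MSX2), and 2 specify neural crest cells (TFAP2A and FOXD3). The question was whether single induced neural stem cell-like cells (iNSLCs) of the common marmoset carry dorsal patterning factors with or without crest factors, and whether this differs by the cell number in the sample label.

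The study made marmoset pluripotent stem cells from somatic cells by way of iNSLCs and profiled 71 flow-sorted single cells by RamDA-seq, a full-length method that primes total RNA of 1 cell with random primers. The 65 iNSLCs were of the line E01F A-2 at passage 1. They were made from E01F fibroblasts, cultured from embryonic dorsal skin, with the EP-A episomal vectors (OCT4, SOX2, KLF4, L-MYC, LIN28, mp53DD and EGFP), and grown in NSM, a medium that the group had used before for putative naive-state pluripotent cells. They were set against 4 ESCs of line no. 40, 1 iPSC of line E01F A-2-2 that was derived through E01F A-2 iNSLCs, and a single fibroblast of E01F. ESCs and iPSC are pooled below as PSC cells. Every group was 1 line. According to the paper, the parental iNSLCs of the iPSC line still held every episomal vector at an early passage. The labels give no number of cultures, so each group was treated as 1 culture, whose cells are not replicates. Therefore no test between groups was made, and intervals cover counting error only.

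In the vertebrate embryo, signals of the BMP and WNT families from the roof plate and the surface ectoderm set the dorsal side of the neural tube. PAX3, PAX7, the ZIC genes and the MSX genes are turned on at the neural plate border and later mark the dorsal tube and roof plate. Some border cells then turn on TFAP2A, FOXD3, SNAI2, ETS1 and SOX10, leave the tube and become neural crest. These roles are known mainly from mouse, chick and frog embryos. In the marmoset assembly calJac240_pri, ZIC2 and ZIC5 lie next to each other with 0 coding genes between them, as do ZIC1 and ZIC4, while PAX3 and PAX7 lie on different chromosomes, as do MSX1 and MSX2.

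Values are the authors' normalized counts per cell, in which 1 read was worth 0.441 to 2.84 in iNSLCs. The iNSLCs held 82268 to 695241 reads (median 268128) and 7574 to 13058 detected genes. The PSC cells held 134328 to 1003718 reads and the fibroblast 1294430. Since gene lengths were not used, values of different genes are not ranked against each other. The cells carried the markers of their labels. All 11 neural stem cell genes had a read in some iNSLC, with a median of 11 of them per iNSLC, and SOX2 averaged 98.1 ± 51.4 and PAX6 22.8 ± 17.9 in iNSLCs, against 24.4 and 0 in PSC cells and 0 and 0 in the fibroblast. The vectors carry SOX2, and whether part of the SOX2 reads in iNSLCs came from them was not tested. The vimentin gene VIM did not set iNSLCs apart from the fibroblast. It averaged 2771 ± 1498 in iNSLCs and 5.96 in PSC cells, and was at 7161 in the fibroblast. The 10 PSC genes summed to 0 to 30.2 per iNSLC, against 549 to 1709 per PSC cell. The 14 fibroblast genes summed to 1.15 to 1153 per iNSLC (median 139.5) and to 31816 in the fibroblast, with PRRX1 and POSTN at 0 in all 65 iNSLCs.

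Each dorsal factor had a read in most iNSLCs, and the crest factors had one in few or none. A read of ZIC2 was found in 65 of 65 iNSLCs (100%, 95% Clopper-Pearson interval 94.5 to 100%), of PAX3 in 62 (95.4%, 87.1 to 99.0%), of ZIC5 in 59 (90.8%, 81.0 to 96.5%) and of ZIC1 in 55 (84.6%, 73.5 to 92.4%). PAX7 and MSX2 each had a read in 53 iNSLCs (81.5%, 70.0 to 90.1%) and MSX1 in 46 (70.8%, 58.2 to 81.4%). TFAP2A had a read in 7 iNSLCs (10.8%, 4.44 to 20.9%) and FOXD3 in 0 of 65 iNSLCs (0 to 5.52%). The intervals of all 7 dorsal factors lay above those of both crest factors. A share of cells with a read depends on depth and is not a share of cells that express the gene. When the 58 iNSLCs with enough reads were thinned to 129629 reads each, the expected shares were 60.1% for MSX1, 7.10% for TFAP2A and 78.4 to 98.9% for the other 6 dorsal factors.

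**Figure D1:**
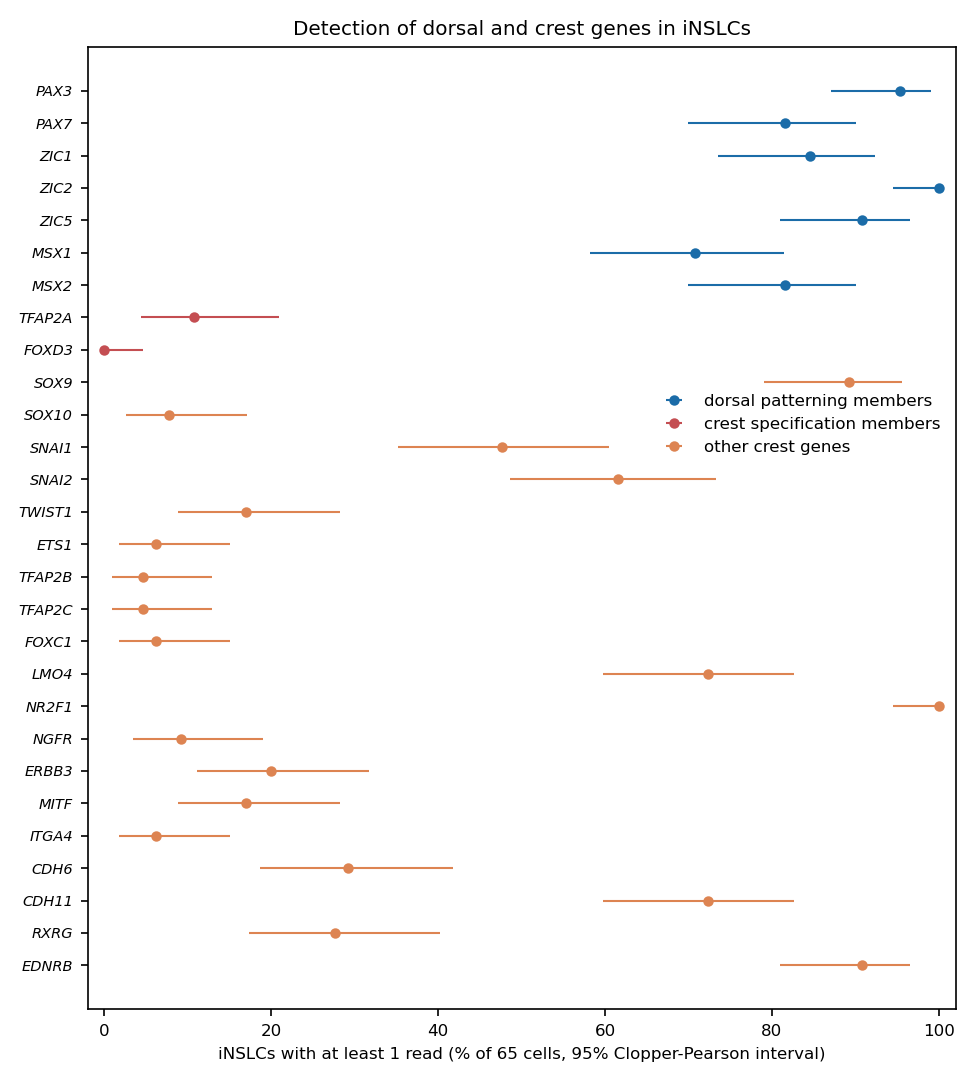
Share of the 65 iNSLCs with at least 1 read (x axis, percent) for the 7 dorsal factors, the 2 crest factors and 19 other crest genes (y axis). Bars are 95% Clopper-Pearson intervals, except that the share of 0 has a limit of 4.62%, taken as 3 in 65 cells. The dorsal factors lie between 70.8 and 100%, TFAP2A is at 10.8% and FOXD3 at 0, and the other crest genes spread over the whole range.

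PAX3, which in mouse acts in dorsal progenitors and in crest precursors, was at 0 to 385 in iNSLCs with a median of 78.1 and a mean of 95.2 ± 81.9 (SD, n = 65 cells). It was at 0 in all 4 ESCs and the iPSC, and at 0.405 in the fibroblast, which is 1 read. The 62 iNSLCs with a read all lay above every PSC cell. Against a floor of 3 reads over the PSC cells, PAX3 was at least 147-fold higher in iNSLCs, and against the single fibroblast read it was 235-fold higher, with a counting interval of 42.2 to 9293.

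PAX7, its close paralog, was at 0 to 96.4 in iNSLCs with a median of 13.7 and a mean of 20.7 ± 22.9 (n = 65). One ESC held 6.07, from 15 reads, while the other 3 ESCs, the iPSC and the fibroblast were at 0. The ranges of iNSLCs and PSC cells therefore overlapped, and 44 of 65 iNSLCs lay above every PSC cell. The log2 ratio of the means, with 1 added to each, was 3.29 for iNSLCs over PSC cells and 4.44 without the ESC that held reads, and PAX7 was at least 17.0-fold higher in iNSLCs than in the fibroblast.

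ZIC1, a zinc finger factor of the dorsal tube and cerebellum, was at 0 to 331 in iNSLCs (median 37.1, mean 72.3 ± 80.2, n = 65). It was at 0 in all 5 PSC cells and at 31.6 in the fibroblast, from 78 reads. It was the dorsal factor with the most reads in the fibroblast, where the other 6 had at most 4. The iNSLC mean was 2.29 times the fibroblast value (counting interval 1.84 to 2.90), and 35 of 65 iNSLCs lay above it. Against the PSC cells ZIC1 was at least 112-fold higher.

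ZIC2, which in human and mouse is needed for the forebrain midline and dorsal closure, was at 0.742 to 567 in iNSLCs (median 101, mean 120 ± 104, n = 65). The ESCs held 120, 53.6, 36.2 and 25.8, and the iPSC and the fibroblast held 0. The iNSLCs thus overlapped the ESCs, with 24 of 65 above every PSC cell. The mean was 2.55-fold higher in iNSLCs than in PSC cells and at least 99.0-fold higher than in the fibroblast. The log2 ratio over PSC cells, 1.33, was 2.02 without the ESC that held 120 and 1.02 without the iPSC.

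ZIC5, the neighbour of ZIC2, was at 0 to 93.4 in iNSLCs (median 19.1, mean 25.9 ± 24.9, n = 65). The ESCs held 6.07, 0, 5.40 and 3.33, the iPSC 2.14 and the fibroblast 0. Of the iNSLCs, 53 lay above every PSC cell, and the mean was 7.63-fold higher in iNSLCs than in PSC cells.

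MSX1, a homeobox factor downstream of BMP signals at the border and roof plate, was low. It was at 0 to 44.4 in iNSLCs (median 2.79, mean 5.54 ± 8.36, n = 65), from 288 reads in all. It was at 0 in the 5 PSC cells and at 1.62 in the fibroblast, from 4 reads. Relative to the PSC floor, iNSLCs held at least 8.54-fold more MSX1, and relative to the fibroblast 3.42-fold more (counting interval 1.34 to 12.6).

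MSX2, its paralog, was at 0 to 188 in iNSLCs (median 6.79, mean 11.4 ± 23.8, n = 65). The 4 ESCs were at 0, the iPSC held 60.9 from 57 reads and the fibroblast 0.809 from 2 reads. Only 1 iNSLC, cell 75 with 188, lay above the iPSC. The pooled ratio over PSC cells rested on that 1 iPSC. It was -0.08 (log2) over all 5 PSC cells, 3.64 over the 4 ESCs alone and -2.32 over the iPSC alone.

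TFAP2A, which is among the earliest factors of crest and of surface ectoderm, was at 0 in 58 iNSLCs. The other 7 held 100 reads in all, and 88 of these were in cell 40, at 99.2 normalized counts. Cells 83 and 81 held 6 and 2 reads (6.01 and 4.56), and cells 38, 57, 58 and 77 held 1 read each (0.663 to 2.30). The ESCs and the fibroblast were at 0, while the iPSC held 68.4 from 64 reads. The log2 ratio over PSC cells was -2.41. It was 1.47 over the 4 ESCs alone and -3.56 without cell 40, so that its sign depended on the 1 iPSC. The share of 10.8% equals that of ZSCAN10, a pluripotency gene that averaged 217.5 in PSC cells and also had a read in 7 iNSLCs. ZSCAN10 is a single gene, and shares of the other PSC genes are not reported here. Whether such reads are background was not tested, and the equal share does not bear on cell 40 with its 88 reads.

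FOXD3, which specifies crest and also acts in pluripotent cells, had 0 reads in the 65 iNSLCs, the iPSC and the fibroblast. Reads were found in 3 of 4 ESCs, which held 2.02, 0, 17.3 and 1.67. Against a floor of 3 reads over the iNSLCs, the PSC mean of FOXD3 was at least 67.8 times as high, and its log2 ratio of iNSLCs over PSC cells was -2.38, or -0.94 without the ESC that held 17.3. Neither crest factor was thus seen in iNSLCs at the level of the PSC cell that held most of it, except TFAP2A in cell 40.

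**Figure D2:**
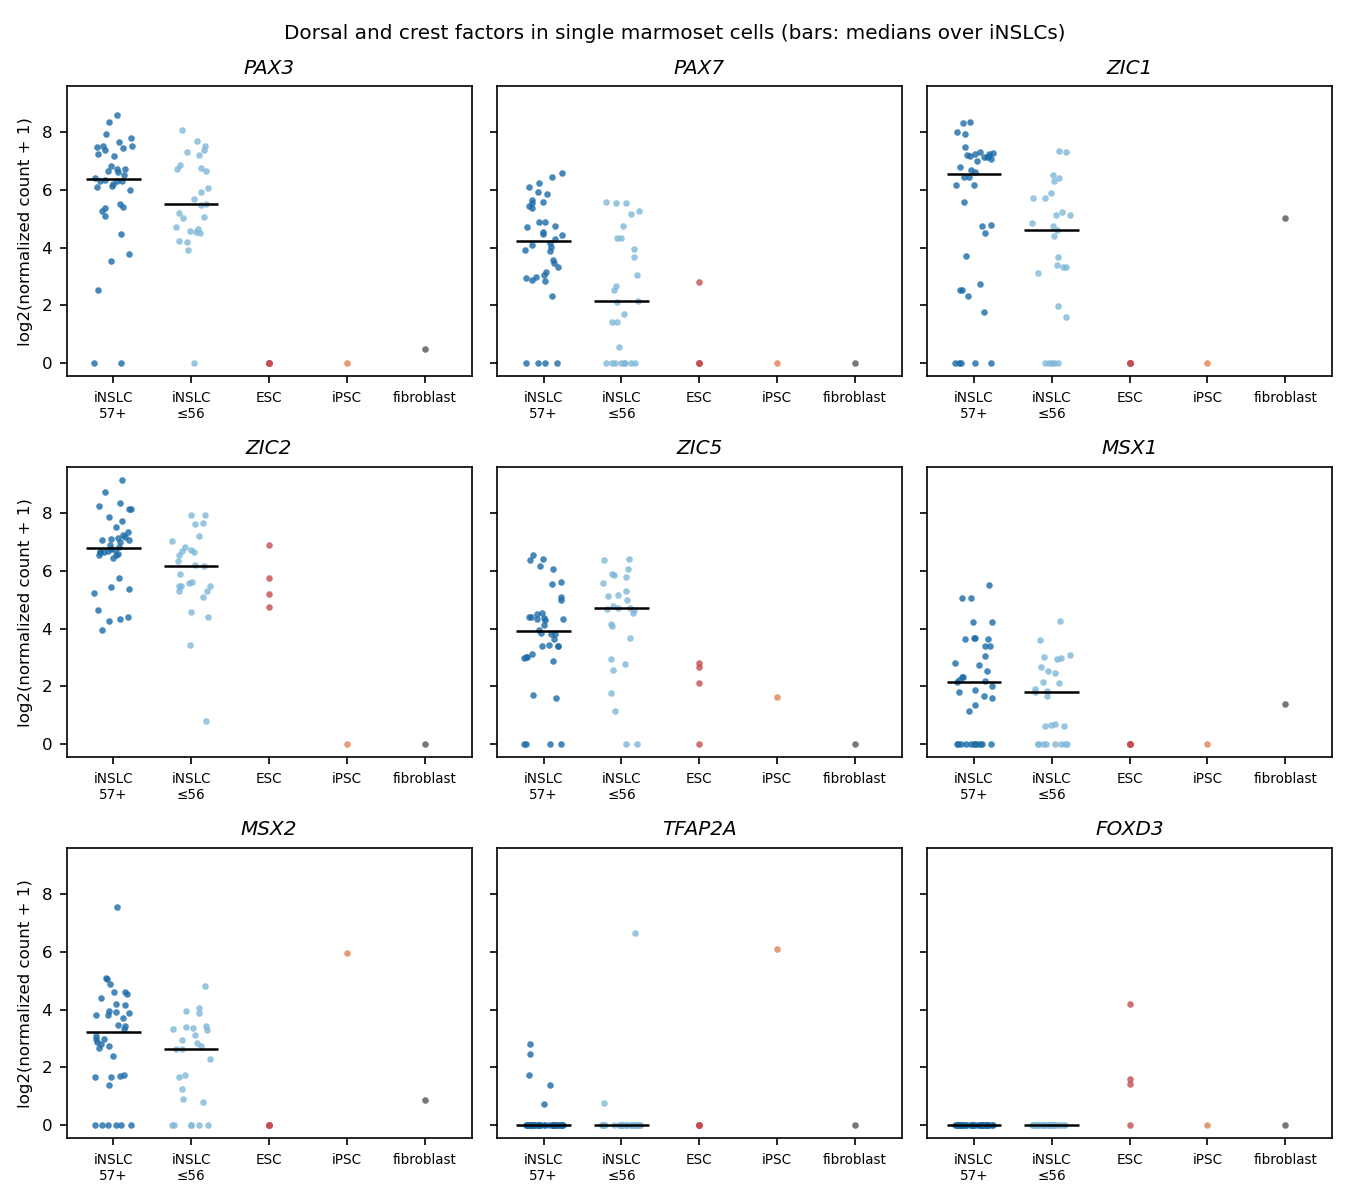
Expression of the 9 factors on a log2(normalized count + 1) scale (y axis) in iNSLCs numbered 57 and above, iNSLCs numbered 56 and below, ESCs, the iPSC and the fibroblast (x axis), with 1 point per cell and a bar at the median of each iNSLC class. PAX3 and ZIC1 are at 0 in all 5 PSC cells, ZIC2 overlaps between iNSLCs and ESCs, TFAP2A stands at 99.2 in 1 iNSLC and 68.4 in the iPSC, and FOXD3 has reads only in ESCs.

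Of the 9 factors, 8 averaged at least 1 normalized count over iNSLCs and PSC cells together, and FOXD3 did not. Among all 14045 genes with such a mean, 17.4% were higher and 24.4% lower in iNSLCs by a log2 ratio of at least 1, with a median of -0.16. PAX3, PAX7, ZIC1, ZIC2, ZIC5 and MSX1 were higher by that measure, TFAP2A was lower and MSX2 lay within it. Most of the dorsal factors reached the mean through the iNSLCs themselves, so the count describes the list and supports nothing further. Against the single fibroblast, 28.7% of 13737 genes were higher and 21.7% lower in iNSLCs, and the same 8 factors were higher, with log2 ratios of 1.17 for ZIC1 to 6.92 for ZIC2. For TFAP2A the ratio was 1.47 with cell 40 and 0.32 without it.

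Other genes of the dorsal tube were in part higher in iNSLCs as well. Of 17 further dorsal and roof plate genes with a row, 10 averaged at least 1, and 7 were higher and 2 lower in iNSLCs than in PSC cells, with a median log2 ratio of 1.75. Genes at 0 in PSC cells, such as OLIG3 and GDF6, reached that mean through the iNSLCs alone, so the count is a description, and over all 17 genes 7 were higher and 3 lower with a median of 0.64. GLI3, the repressor of the hedgehog pathway in the dorsal tube, averaged 110 ± 64.3 in iNSLCs and 24.1 in PSC cells. GSX2, a factor of dorsal interneuron progenitors, averaged 9.28 ± 18.3 in iNSLCs and was at 0 in PSC cells, as was ZIC4, the neighbour of ZIC1, which averaged 9.26 ± 12.9 in iNSLCs. BMP7, a roof plate ligand, averaged 9.67 ± 13.5 in iNSLCs and 19.2 in PSC cells. In the fibroblast GLI3 was at 89.0 and ZIC4 at 8.90, close to their iNSLC means, while GSX2 and BMP7 were at 0. The 4 ventral genes with a row were near 0. NKX6-1 had a read in 3 iNSLCs, NKX6-2 in 2 and SHH, the floor plate ligand, in 1, while FOXJ1 averaged 0.834 in iNSLCs and 33.0 in PSC cells.

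Genes of the crest list were split. Of 19 further crest genes with a row, 15 averaged at least 1, and 6 were higher and 5 lower in iNSLCs than in PSC cells, with a median of -0.25. The 4 with the highest iNSLC means are also genes of neural progenitors or mesenchyme. NR2F1, a nuclear receptor of the early nervous system, averaged 102.5 ± 62.9 in iNSLCs and 0 in PSC cells, and SOX9, a factor of both crest and neural stem cells, averaged 23.7 ± 19.7 in iNSLCs and 0.675 in PSC cells. EDNRB, the endothelin receptor of crest and radial glia, averaged 21.4 ± 17.9 in iNSLCs and 2.96 in PSC cells, and CDH11, a mesenchymal cadherin, averaged 9.60 ± 14.0 in iNSLCs and 3.53 in PSC cells. The narrower crest genes were sparse. SOX10, the crest and glial factor, had a read in 5 iNSLCs (7.69%), ETS1 in 4 (6.15%), TFAP2B in 3 (4.62%), NGFR in 6 (9.23%) and ERBB3 in 13. The zinc finger factors of the crest's transition to migrating cells were more frequent, with SNAI2 in 40 iNSLCs (61.5%) and SNAI1 in 31 (47.7%). The fibroblast held SNAI2 at 60.3, above all 65 iNSLCs (mean 4.89). SNAI1 was at 2.83 in the fibroblast, against means of 2.69 in iNSLCs and 4.48 in PSC cells. The fibroblast also held EDNRB at 39.7 and CDH11 at 296, above their iNSLC means, and NR2F1 at 13.8 and SOX9 at 1.62, below them.

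Over 8 genes picked as crest markers (SOX10, TFAP2A, TFAP2B, FOXD3, SNAI2, ETS1, NGFR and ERBB3), iNSLCs held a read of 0 to 4, with a median of 1, and 13 iNSLCs held none. Cells 40 and 81 were the 2 with 4 of them. The ESCs held 1 to 5 of these genes, the iPSC 6 and the fibroblast 3. No iNSLC thus held a read of as many of these genes as the iPSC did. Several of the 8 were not particular to crest here. ERBB3 had a read in all 5 PSC cells (mean 93.3, against 2.49 in iNSLCs), ETS1 in 4 and FOXD3 in 3. The counts in PSC cells therefore do not measure a crest state. The iPSC also had 13669 detected genes, against 7574 to 13058 in iNSLCs.

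The BMP response genes did not move as 1 group. Of 11, 10 averaged at least 1, with 3 higher and 3 lower in iNSLCs than in PSC cells (median -0.36). ID2, an inhibitor of bHLH factors and a BMP target, averaged 54.9 ± 67.3 in iNSLCs and 27.7 in PSC cells, and ID1 averaged 16.9 ± 35.7 in iNSLCs and 26.5 in PSC cells. The PSC mean of ID2 rested on the 1 iPSC at 135, with the ESCs at 0 to 2.50. Its log2 ratio was 4.81 over the ESCs and -1.28 over the iPSC, and that of ID1 0.01 and -1.88. BAMBI, which was lower in iNSLCs, held 125 in the iPSC against an ESC mean of 5.44. Its log2 ratio over the ESCs was -2.04. ID4 averaged 15.3 ± 17.5 in iNSLCs and 3.31 in PSC cells, and SMAD9, a transducer of BMP signals, 12.1 ± 13.1 in iNSLCs and 5.38 in PSC cells. Of 10 genes of placode and surface ectoderm, 5 averaged at least 1, with 0 higher and 2 lower (median 0.34). SIX4 averaged 14.2 ± 14.1 in iNSLCs and 11.0 in PSC cells, EYA2 averaged 1.69 ± 10.2 in iNSLCs and 0.824 in PSC cells, and the epithelial factors GRHL3 and GRHL2 averaged 2.68 ± 5.29 and 1.49 ± 3.38 in iNSLCs, against 9.74 and 92.0 in PSC cells.

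Most iNSLCs had reads of several dorsal factors in the same cell. Since each factor had a read in most iNSLCs, many such cells would arise without a link between the factors. The counts below were not set against those expected from the separate shares. Of the 65 iNSLCs, 34 had a read of all 7 dorsal factors (52.3%, 95% interval 39.5 to 64.9%), 15 of 6 of them, 6 of 5, 6 of 4, 3 of 3 and 1 of 2. The 5 PSC cells had 1 to 3 of the 7, and the fibroblast had 4. PAX3 and PAX7 were both present in 51 iNSLCs, PAX3 alone in 11, PAX7 alone in 2 and neither in 1. MSX1 and MSX2 were both present in 41, MSX2 alone in 12, MSX1 alone in 5 and neither in 7. The 3 ZIC genes were all present in 52. At 2 reads or more per gene, the share of iNSLCs with all 7 was 32.3%, and with every cell thinned to equal reads it was 39.2%.

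**Figure D3:**
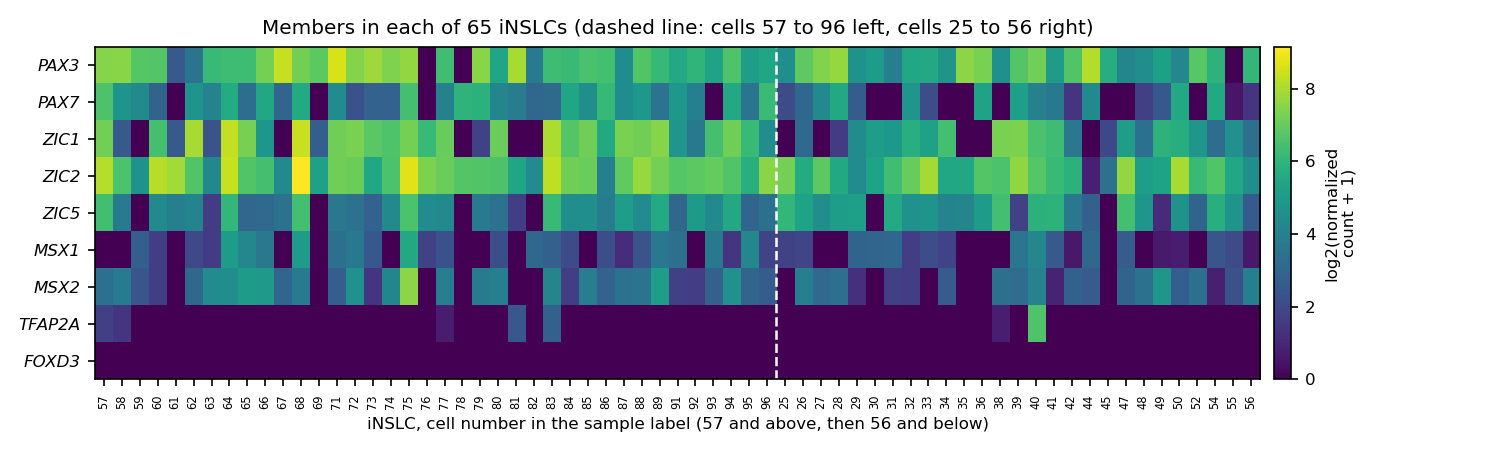
Each of the 65 iNSLCs as a column, with cells numbered 57 and above left of the dashed line and cells numbered 56 and below right of it, and the 9 factors as rows, coloured by log2(normalized count + 1). All 7 dorsal rows are filled in 34 cells, the TFAP2A row in 7 and the FOXD3 row in 0.

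All 7 iNSLCs with a TFAP2A read also had reads of dorsal factors, while 58 iNSLCs had dorsal factors with neither crest factor, and no iNSLC had a crest factor alone. With ZIC2 present in every iNSLC, no other outcome could arise. The 7 cells with TFAP2A held 4 to 7 of the dorsal factors, and 3 of them held all 7. PAX3 was at 23.0 to 246 in these 7 cells (median 148), against 0 to 385 in the 58 without TFAP2A (median 69.3). ZIC5 was at 2.28 to 83.4 in the 7 (median 57.5), against 0 to 93.4 in the 58 (median 17.9). MSX1 had a read in 3 of the 7 (42.9%, 9.90 to 81.6%), against 43 of the 58 (74.1%, 61.0 to 84.7%). The ranges overlapped for each gene, and median reads per cell were 271194 in the 7 and 263374 in the 58. The 14 fibroblast genes summed to 43.6 to 691 in the 7 cells and to 1.15 to 1153 in the 58, and the 10 PSC genes to 0 to 6.01 in the 7 and to 0 to 30.2 in the 58. The 10 placode and surface ectoderm genes summed to 13.8 to 114 in the 7 (median 26.0) and to 0 to 85.3 in the 58 (median 17.3).

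Cell 40 was the 1 iNSLC with a high TFAP2A value, and it had reads of all 7 dorsal factors. It held TFAP2A at 99.2 beside PAX3 at 147.7, ZIC2 at 105, ZIC1 at 90.2, ZIC5 at 57.5, MSX1 at 18.0, MSX2 at 15.8 and PAX7 at 14.7. Its ZIC2 and PAX7 were near the iNSLC medians of 101 and 13.7, and the other dorsal factors lay above theirs. Of the other crest genes it held TFAP2B at 16.9, NGFR at 11.3 and SNAI2 at 5.64, with SOX10, FOXD3 and ETS1 at 0. It thus had reads of 4 of the 8 crest markers, and it also held GRHL3 at 3.38. TFAP2A is a factor of surface ectoderm as well, and whether its reads in this cell mark crest was not tested. Cell 81 held TFAP2B at 54.7 and TFAP2A at 4.56 with PAX3 at 246, while ZIC1, MSX1 and MSX2 were at 0. Cell 83 held SNAI2 at 41.1, ETS1 at 23.0 and TFAP2A at 6.01 with all 7 dorsal factors, among them ZIC1 at 256 and ZIC2 at 307. Of the 3 iNSLCs with TFAP2B, 2 also had TFAP2A, whereas 0 of the 5 iNSLCs with SOX10 did. The iPSC, which held TFAP2A and MSX2 without PAX3, ZIC1 or ZIC2, also held BAMBI at 125, GATA2 at 38.5, GATA3 at 21.4, GRHL3 at 44.9 and ETS1 at 44.9. GATA2 was at 0 in all 65 iNSLCs.

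Among the ZIC genes, ZIC2 varied from cell to cell with both ZIC1 and ZIC5, and PAX3 did so little with any of them. Over the 21 pairs of dorsal factors, Spearman's rho across the 65 iNSLCs was -0.10 to 0.55 with a median of 0.23, with 3 pairs at 0.5 or more and 12 below 0.25 in size. These correlations are over cells of 1 culture that share a library type and differ in depth, and they are given as descriptions. Across cells, the rho of each dorsal factor with the number of reads was -0.22 to 0.17. ZIC1 and ZIC2 had a rho of 0.55, ZIC2 and ZIC5 0.53 and ZIC1 and MSX2 0.52. Within the 38 cells numbered 57 and above these were 0.62, 0.75 and 0.57, and within the 27 numbered 56 and below 0.31, 0.43 and 0.29. The remaining ZIC pair, ZIC1 and ZIC5, had 0.37 over all iNSLCs, 0.69 in cells numbered 57 and above and 0.05 in those numbered 56 and below. ZIC1 was the gene with the highest rho to ZIC2 among 11531 genes, and ZIC2 ranked 2nd for ZIC5.

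PAX3 had a rho near 0 with the ZIC genes. It was -0.06 with ZIC1 (0.02 in cells numbered 57 and above and -0.42 in those numbered 56 and below), -0.05 with ZIC2 and -0.10 with ZIC5, against 0.31 with PAX7 and 0.29 with MSX2. The 10 iNSLCs without a ZIC1 read held PAX3 at 0 to 324 (median 163), with a read in 9 of them, against 0 to 385 (median 70.4) in the 55 with ZIC1. The 19 iNSLCs without MSX1 likewise held PAX3 at a median of 158, against 67.2 in the 46 with MSX1. High PAX3 was thus found in cells without ZIC1 or MSX1. Of the 3 iNSLCs without PAX3, cell 55 held ZIC1 at 23.6 and ZIC2 at 43.4, cell 76 held ZIC1 at 71.8 and ZIC2 at 162, and cell 78 held PAX7 at 60.6 and ZIC2 at 104 and no other factor of the 9. Cell 78 was also the iNSLC with the fewest dorsal factors, 2, at a depth of 210478 reads, and it held the neural progenitor factors SOX2 at 52.7 and POU3F2 at 178.

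**Figure D4:**
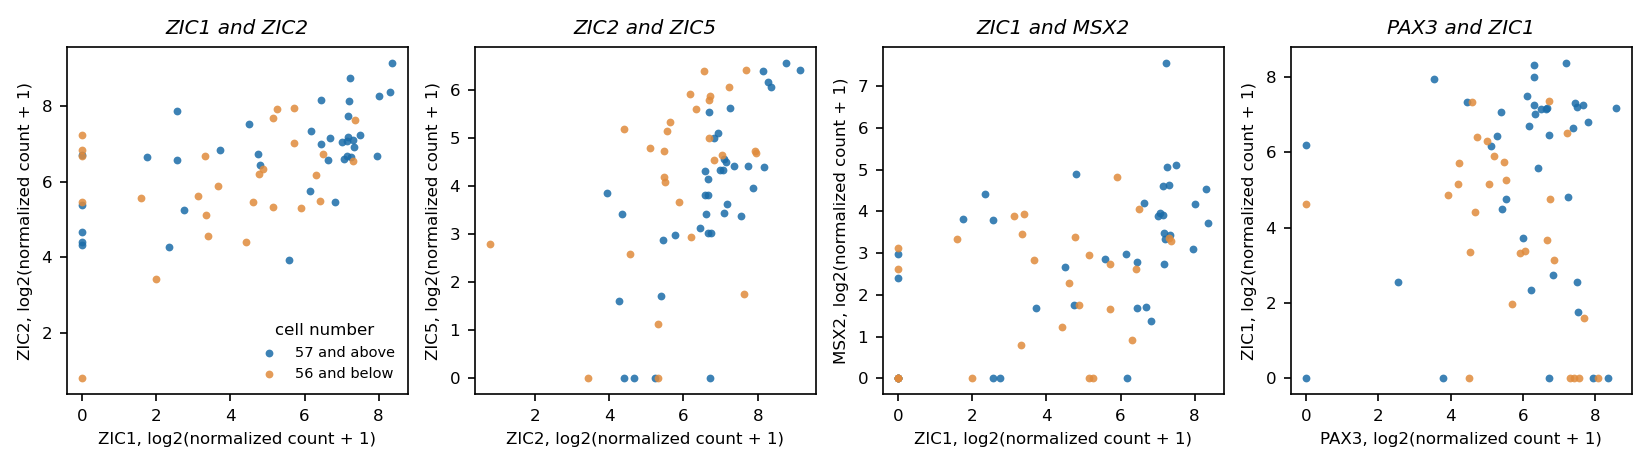
Pairs of dorsal factors in the 65 iNSLCs on log2(normalized count + 1) axes, with 1 point per cell, blue for cells numbered 57 and above and orange for cells numbered 56 and below. ZIC1 with ZIC2, ZIC2 with ZIC5 and ZIC1 with MSX2 have a rho of 0.52 to 0.55, and PAX3 with ZIC1 has -0.06, with cells of high PAX3 at 0 on the ZIC1 axis.

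Genes other than the 9 factors whose values most resembled them over the 65 iNSLCs, among 11525 genes, were in part other dorsal genes. For ZIC1 these included LGALS3BP with a rho of 0.77, RFX2 with 0.71, ZIC4 with 0.64 and BSG with 0.62. The rho of ZIC1 with its neighbour ZIC4 was 0.67 in cells numbered 57 and above and 0.65 in those numbered 56 and below. For ZIC5 they were OLIG3, a factor of the most dorsal progenitors, with 0.55, WNT3A, a roof plate ligand, with 0.53, CASZ1 with 0.51, ZIC4 with 0.50 and SEMA3C with 0.47. For ZIC2 they were P4HB with 0.55, BSG with 0.54, GAPDH with 0.53, IGFBP2 with 0.52 and OLIG3 with 0.52. OLIG3 was thus among the 5 closest genes outside the 9 factors for both ZIC2 and ZIC5.

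For PAX3 the closest genes were SCUBE1 with a rho of 0.59, KIF1A with 0.53, POU3F4 with 0.52, CELSR2 with 0.51 and PAK5 with 0.50. For PAX7 they were TCF25 with 0.53, TRPM4 with 0.50, CRIP2 with 0.49, GTF2IRD1 with 0.48 and BORCS6 with 0.47. Both lists hold no gene of the dorsal list. For MSX1 they were TSKS with 0.59, RTKN and KIAA0895 with 0.51 each, N6AMT1 with 0.49 and ARF5 with 0.48, and for MSX2 ZNF446 with 0.54, DENND1A with 0.53, ASAP3 with 0.52, FOXO6 with 0.51 and MDK with 0.51.

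The iNSLCs with OLIG3 or WNT3A had higher medians of ZIC genes than those without. Both genes were named above for their rho with ZIC5 over these same cells. The split therefore restates that likeness and is no further support for it. All 15 iNSLCs with an OLIG3 read had ZIC1, at 34.4 to 331 (median 150), against 0 to 159 (median 22.6) and 40 of 50 cells without OLIG3. ZIC5 was at 2.39 to 93.4 (median 59.1) in the 15, against 0 to 65.8 (median 13.3) in the 50. In the 13 iNSLCs with WNT3A, ZIC5 was at 20.3 to 93.4 (median 59.1), against 0 to 82.6 (median 13.3) in the 52 without. The ranges overlapped, and median reads were 271194 and 288944 in the cells with OLIG3 and with WNT3A, against 263374 in those without either gene in turn.

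Cell 75 stood apart from the other iNSLCs in part of its dorsal and roof plate genes. Among 24 dorsal genes (the 7 factors and the 17 further dorsal genes), it held the highest value of 8, and no other iNSLC held that of more than 2. These were MSX2 at 188 against at most 33.4 in any other iNSLC, MSX1 at 44.4 against 32.6, ZIC5 at 93.4 against 83.8, WNT3A at 213 against 65.5, OLIG3 at 98.0 against 73.4, LMX1B, a roof plate factor, at 9.19 against 1.10, ATOH1, the factor of the most dorsal interneuron progenitors, at 32.2 against 4.08, and RSPO1 at 1.53, from 1 read, against 0. The cell also held ZIC2 at 429, PAX3 at 201, ZIC1 at 150 and PAX7 at 85.8. Other genes of the same list were not highest in it. GDF7, BMP7 and WNT4 were at 9.19, 23.0 and 23.0, below the highest other iNSLC at 43.8, 72.9 and 29.6. GSX2, a factor of less dorsal interneuron progenitors, was at 0 in cell 75, as were the ligands BMP4 and GDF6, and RSPO2 and RSPO3. TFAP2A and FOXD3 were at 0. Cell 75 had 207013 reads and 11333 detected genes, inside the range of the other iNSLCs, and it was picked out after its values were seen.

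Cells numbered 57 and above held more of several dorsal factors than cells numbered 56 and below. The boundary came from earlier results of these data, and the labels do not say what the number stands for, so that culture, plate position and handling cannot be told apart. The 2 classes also differed in depth, with a median of 208746 reads in the 38 cells numbered 57 and above and 357910 in the 27 numbered 56 and below. Among all 13603 genes with a mean of at least 1 over iNSLCs, 7.31% were higher and 7.11% lower in the upper class by a log2 ratio of at least 1. ZIC1, MSX2 and PAX7 were higher by that measure, TFAP2A was lower, and PAX3, ZIC2, ZIC5 and MSX1 were within it. Without cell 75 the MSX2 ratio fell below that limit, to 0.68, and PAX7 did so without cell 57, at 0.95, and with every cell scaled to the same total, at 0.87. The ZIC1 ratio stayed above 1 under every alternative run for it. The median log2 ratio of these 8 was 0.79, against 0.04 over all genes.

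ZIC1 was at 0 to 331 (median 92.7, mean 97.6 ± 90.2) in the 38 cells numbered 57 and above, against 0 to 162 (median 23.6, mean 36.8 ± 44.7) in the 27 numbered 56 and below, a log2 ratio of 1.38. PAX7 was at 0 to 96.4 (median 17.7, mean 26.6 ± 25.2), against 0 to 46.6 (median 3.48, mean 12.3 ± 16.2), a log2 ratio of 1.05. MSX2 was at 0 to 188 (median 8.36, mean 15.2 ± 30.3), against 0 to 27.4 (median 5.19, mean 6.16 ± 6.42), a log2 ratio of 1.18. Without cell 75 the mean of the upper class was 10.5. The classes overlapped for all 3 genes. A PAX7 read was found in 34 of 38 cells numbered 57 and above (89.5%, 75.2 to 97.1%) and in 19 of 27 numbered 56 and below (70.4%, 49.8 to 86.2%), and with equal reads per cell the expected shares were 90.7% and 65.4%. The upper class thus had the larger share at the lower depth.

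PAX3, ZIC2, MSX1 and ZIC5 had ratios within the limit. PAX3 averaged 107.7 ± 87.8 in cells numbered 57 and above and 77.6 ± 70.7 in those numbered 56 and below, ZIC2 143 ± 118 and 87.4 ± 68.8, and MSX1 7.07 ± 10.1 and 3.38 ± 4.22. ZIC5 went the other way, with 23.0 ± 25.0 in cells numbered 57 and above and 29.8 ± 24.5 in those numbered 56 and below, a log2 ratio of -0.36. ZIC5 was thus the dorsal factor that was not higher in the upper class, while its neighbour ZIC2 had a log2 ratio of 0.71. The TFAP2A ratio of -1.75 came from cell 40. It was 0.44 without that cell, and a TFAP2A read was found in 5 of 38 cells numbered 57 and above (13.2%) and in 2 of 27 numbered 56 and below (7.41%).

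All 7 dorsal factors were present in 23 of 38 cells numbered 57 and above (60.5%, 43.4 to 76.0%) and in 11 of 27 numbered 56 and below (40.7%, 22.4 to 61.2%), and the intervals overlapped. The further dorsal genes had 3 of 9 higher and 0 lower in the upper class (median 0.68), among them GSX2 with 13.3 in cells numbered 57 and above and 3.57 in those numbered 56 and below. The BMP response genes had 3 of 9 higher and 0 lower (median 0.60). ID1 averaged 22.9 in cells numbered 57 and above and 8.46 in those numbered 56 and below, and ID2 71.2 and 32.0. Of the crest genes 2 of 14 were higher and 1 lower. A SNAI2 read was found in 73.7% of cells numbered 57 and above and in 44.4% of those numbered 56 and below, and a SNAI1 read in 65.8% and 22.2%. The sums of the 14 fibroblast genes had medians of 148 and 111, and of the 11 neural stem cell genes of 3654 and 2518, in cells numbered 57 and above and in those numbered 56 and below, and their part in the differences was not tested.

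The dorsal factors were found with and without the proneural and axial genes of the same cells. The 22 iNSLCs with a read of the proneural factor NEUROG2 all had PAX3, and 19 of them had ZIC1, at a median of 123, against 26.9 over the 43 without NEUROG2. Of the 35 iNSLCs with the posterior gene HOXA9, 34 had PAX3, against 28 of the 30 without HOXA9. ZIC2, with a read in every iNSLC, could not differ in this count. ZIC1 had a read in 32 of the 35 (median 71.8), against 23 of the 30 (median 26.1), and PAX7 in 31 (median 14.7), against 22 (median 8.77). MSX1 had a read in 26 (median 2.53), against 20 (median 3.43). The ranges overlapped, and median reads per cell were 272658 with HOXA9 and 230949 without.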

How the data were processed

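The members and the gene lists were chosen with earlier results of these data known, and the boundary between cell numbers came from those results. The authors deposited 1 table of normalized counts (signal, with a scaling factor for each cell) for 71 single cells. Seurat 3.0.0, featureCounts 1.5.1, STAR 2.6.0c and Trimmomatic are named in the submitters' processing notes. No source used here gives the genome build, the annotation or the handling of strand and of reads shared by paralogs, so reads of near-identical or overlapping genes could be split. Gene neighbours were taken from RefSeq for calJac240_pri.

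In each cell 100% of non-zero values were whole multiples of the value of 1 read, within 0.02, which gave the reads per cell. No count model was fitted, since each group was treated as 1 culture. Groups were compared by log2 ratios of mean values with a pseudocount of 1, over genes that averaged 1 or more in the groups compared. Shares have Clopper-Pearson intervals and sums of reads exact Poisson intervals at 95%. Where a group had 0 reads, 3 reads over all its cells served as its floor (0.648 normalized counts in PSC cells, 0.0618 in iNSLCs and 1.21 in the fibroblast). Thinned shares are exact expectations for 129629 reads per cell, reached by 34 of 38 cells numbered 57 and above and 24 of 27 numbered 56 and below. Correlations are Spearman's rho. Each cell was sorted to its own well, and doublets were not called. An unnamed row, up to 0.449% of a cell's total, was left out. Of 115 list genes, 10 have no row and were not analysed here (LMX1A, WNT1, FOXA2, NKX2-2, NKX2-8, OLIG2, DBX1, TP63, KRT5 and KRT14).

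Genes named are the 9 members, the 4 genes of each list with the highest iNSLC mean, and the 5 genes, members left out, with the highest rho to each dorsal member, among genes with a read in at least 20% of iNSLCs. Some genes of the lists and of the closest genes are not reported here. The 8 crest markers, the genes set beside TFAP2A and the genes of cell 75 were chosen after values were seen. Of the neural stem cell list, NES averaged 261 in iNSLCs and 136 in PSC cells, CDH2 135.5 and 0.081, and POU3F2 98.9 and 0. Of the PSC list, DPPA4 averaged 0.950 in iNSLCs and 129 in PSC cells, ZSCAN10 0.589 and 217.5, EPCAM 0.280 and 74.8, and ZFP42 0.238 and 62.4. Of the fibroblast list, the log2 ratio of iNSLCs over the fibroblast was -6.75 for COL1A2, -2.68 for FBN1, -6.69 for COL5A1 and -3.01 for THY1. Alternatives were another pseudocount, medians, scaling to equal totals, shallow cells left out, other detection limits, thinning, other filters and cells left out in turn. The steps were tested on simulated data. Python 3.11.15, numpy 2.4.6, pandas 2.3.3, scipy 1.17.1 and matplotlib 3.10.9 were used.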

Additional observations from a re-analysis of the deposited data

Results flagged for a closer look

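In 4 members that had any read in ESCs, the 4 ESCs were examined for a cell far from the others, and 2 were found. PAX7 was at 6.07 in 1 ESC, from 15 reads, and at 0 in the other 3. FOXD3 was at 17.3 in another ESC, while the other 3 held 0 to 2.02. The nominal rate of about 1 in 20 such groups need not hold for 4 cells with most values at or near 0. The ESC with PAX7 was also the deepest of the 4, with 1003718 reads.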

How the results depend on the processing

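Of 243 alternatives over 49 results, 202 moved by less than the spread between cells (for counts, by less than 1.5 times), 39 moved by more and 2 reversed, both for TFAP2A. With a pseudocount of 10 the log2 ratios of iNSLCs over PSC cells were 3.40 for PAX3, 3.04 for ZIC1, 0.64 for MSX1, -1.01 for TFAP2A and -0.51 for FOXD3. By construction a larger pseudocount draws low genes towards 0. With medians over cells they were 2.96 for MSX2, 0 for TFAP2A and -1.41 for FOXD3, and with every cell scaled to the same total -2.11 for FOXD3. Leaving out single cells gave -0.45 (without iNSLC 75) to 3.64 (without the iPSC) for MSX2, -3.56 (without iNSLC 40) to 1.47 (without the iPSC) for TFAP2A, and -2.64 to -0.94 for FOXD3. The TFAP2A ratio by cell number was -0.40 with a pseudocount of 10, 0 with medians and 0.44 without iNSLC 40. At a value of at least 10, 1.54% of iNSLCs held a dorsal and a crest factor and 7.69% all 7 dorsal factors. All 7 were held by 32.3% at 2 reads or more and by 39.2% after thinning. With a mean of at least 10, 3 of the crest genes and 1 of the further dorsal genes were higher in iNSLCs, since fewer genes passed. No paired analysis was possible because the groups share no replicate numbers. By cell number, MSX2 fell below a ratio of 1 without iNSLC 75 (0.68), with medians (0.60), with a pseudocount of 10 (0.64) and without shallow cells (0.99), and PAX7 without iNSLC 57 (0.95), scaled to equal totals (0.87) and with a pseudocount of 10 (0.71). Leaving out single PSC cells gave up to 4.44 for PAX7 and 1.02 to 2.02 for ZIC2, so that with 5 PSC cells single cells weigh on the ratios of PAX7, ZIC2, MSX2, TFAP2A and FOXD3. The spread between cultures cannot be measured here.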
